A study of Mus musculus with 18 samples.

Results

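B cells can be driven into the cell cycle through a Toll-like receptor or through the antigen receptor, and RNASeq of WT mouse splenic B cells was used here to compare the mRNAs of both routes. The comparison comprised 6 libraries, 3 from cells given LPS from *E. coli* K12 at 20 μg/mL and 3 from cells given F(ab)2 fragments of anti-IgM at 10 μg/mL, out of 18 libraries in the series. Members were chosen by the treatment in the sample labels and all genes were compared. B cells came from spleens of C57BL/6 N mice at least 8 weeks old and were isolated with a magnetic kit, and RNA was taken after 4 hr. The 3 WT resting libraries, which received no stimulus, show on which side of the starting level each gene stood, and 6 libraries of *Ubqln1* knockout cells under the same stimuli served as separate samples. Wells treated alike were pooled before RNA purification, and the 3 libraries of a group are given by the study as independent experiments. All 3 LPS libraries stood above all 3 anti-IgM libraries for interferon-stimulated genes such as *Cxcl10*, *Ifit1* and *Mx1*, and all 3 anti-IgM libraries stood above all 3 LPS libraries for *Spp1*, *Il1r1* and the immediate early gene *Egr2*.

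LPS is a bacterial cell wall lipid that is recognized by TLR4 with its partner MD-2, which *Ly96* encodes. TLR4 signals through the adaptors MYD88 and TRIF, which lead to NF-κB, MAP kinases and, through TRIF, the IRF transcription factors that switch on type I interferon and interferon-stimulated genes. The BCR consists of surface immunoglobulin with the CD79A and CD79B chains. Its crosslinking by anti-IgM activates LYN and SYK and, through PLCγ2, raises calcium, which activates NFAT, and opens the RAS to ERK pathway, whose targets include EGR and AP-1 factors. Both stimuli are mitogens for splenic B cells.

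The summed counts were 28590363 to 41072854 in the LPS libraries, 19875860 to 26466299 with anti-IgM and 15368941 to 24725416 in resting cells, and every LPS library was deeper than every anti-IgM library. Principal components of the 9 WT libraries separated LPS from anti-IgM on the second component, with 28.38% of the variance, and the third, with 8.717%, separated the libraries by replicate number in every group. *Ubqln1* itself read 229.5 to 339.2 CPM (counts scaled to an equal library size with TMM) in WT and 91.42 to 128.4 in knockout libraries. The 6 B cell markers were all detected and summed to 6911 to 8366 CPM at rest, 2196 to 2829 with anti-IgM and 5463 to 6577 with LPS. In bulk RNA, fewer cells of a type and less RNA per cell cannot be told apart. The 8 T cell markers summed to 6.686 to 7.54 CPM with anti-IgM and 3.279 to 4.94 with LPS, without overlap, and 4.715 to 6.625 at rest. Of them *Cd28* read 5.35, 4.54 and 4.61 CPM with anti-IgM and 1.098, 0.762 and 2.58 with LPS, whereas the defining markers *Cd3d*, *Cd3e* and *Cd3g* stayed at 0 to 0.319 CPM and 5 of 8 were under 1 CPM in every stimulated library. *Cd8a* went the other way, with 28 reads in the anti-IgM libraries and 91 in the LPS libraries (log2 fold change of LPS minus anti-IgM 1.219). Of the 3 T cell markers tested, 1 was thus called on each side at an adjusted p under 0.05. The 6 NK markers summed to 2.311 to 5.067 CPM with anti-IgM and 2.109 to 2.899 with LPS. The 11 myeloid markers summed to 25.53 to 30.44 CPM with anti-IgM, 22.66 to 25.52 with LPS and 30.08 to 56.13 at rest. Of them 1 was at zero counts and 4 were under 1 CPM in each stimulated library. Among the 6 tested, 2 were higher with anti-IgM and 0 with LPS. *Csf1r* had 131 reads with anti-IgM and 35 with LPS, and *Lyz2* 298 and 162. Without anti-IgM replicate 3 *Lyz2* lost its call. With the replicate number as a block *Adgre1* was called toward LPS (0.503). The part of myeloid cells in the results was not tested. The 6 dendritic cell markers were higher with LPS, at 42.18 to 72.99 against 23.34 to 31.86 CPM, of which *Zbtb46* and *Flt3* made up the larger share in each, while *Siglech* stayed at 0 to 0.107 CPM, and the part of such cells in the results was not tested. Erythroid and platelet markers summed to 5.774 to 7.726 CPM in the stimulated libraries and plasma cell markers to 145.8 to 404.5.

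Genes were called at the thresholds of the study, an absolute log2 fold change over 2 with an adjusted p under 0.001, and also at an adjusted p under 0.05 without a limit on size. Where a single value follows a gene name, it is the log2 fold change of LPS minus anti-IgM, negative where anti-IgM was higher. Counts of called members of a gene list stand beside the shares of all genes given in the next sentences. Of 14161 genes tested, 198 were higher with LPS (1.4%) and 157 with anti-IgM (1.11%) past the thresholds. At an adjusted p under 0.05 they were 2468 (17.4%) and 2122 (15%). With the replicate number as a block in the fit they were 3167 and 2888, and the shares beside gene lists come from the fit without it. For 3048 genes (21.5%) the lowest LPS library exceeded the highest anti-IgM library and for 2705 (19.1%) the reverse held. The median log2 fold change of LPS minus anti-IgM over all genes was 0.00221. Both stimuli changed much of the transcriptome relative to resting cells. With LPS, 4417 genes rose (31.2%) and 4256 fell (30.1%), and with anti-IgM 4588 rose (32.4%) and 4558 fell (32.2%), at an adjusted p under 0.05. These last 2 comparisons use the same resting libraries, so their values are set side by side only.

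Relative to resting cells, the 198 genes higher with LPS had risen with LPS and fallen with anti-IgM in 78 cases and had risen with LPS without a call for anti-IgM in 72. In 33 genes LPS gave no call and anti-IgM lowered the mRNA, 9 rose with both stimuli and 6 fell with both. Of the 157 genes higher with anti-IgM, 93 had risen with anti-IgM without a call for LPS and 51 had risen with anti-IgM and fallen with LPS. Another 7 fell with LPS without a call for anti-IgM and 6 rose with both. Genes that anti-IgM lowered (78, 33 and 6 of the 198) thus made up most of those called toward LPS, and *Syk*, *Icosl* and *Il10ra* below are examples.

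Genes of the interferon response led the differences toward LPS. *Cxcl10* (Entrez 15945, chr5:92346638-92348889 in GRCm38 by RefSeq), a chemokine that recruits CXCR3-bearing T cells, read 28.9, 36.98 and 51.6 CPM in the 3 LPS libraries, 0.1995, 0.189 and 0.658 with anti-IgM and 0.128, 0.3897 and 0.847 at rest (log2 fold change 6.89, SE 0.37, edgeR adjusted p = 3.7e-10). The anti-IgM libraries overlapped the resting ones and every LPS library stood above both. The 3 anti-IgM libraries held 23 reads of *Cxcl10* in all and the 3 LPS libraries 3792, so the size of the fold rests on few reads, and without anti-IgM replicate 3 it was 7.618. *Ifit1* (chr19:34640889-34650009) encodes a protein that binds viral RNA ends, and it read 40.9, 30.4 and 26.4 CPM with LPS, 0.1995, 0.341 and 1.42 with anti-IgM and 0.448, 0.779 and 0.697 at rest (log2 fold change 5.75, SE 0.41, edgeR adjusted p = 1.03e-08). Its neighbor *Ifit3* (chr19:34583119-34588982) read 28.7, 9.48 and 22.8 CPM with LPS, 0.1995, 0.0758 and 1.06 with anti-IgM and 1.28, 1.403 and 1.64 at rest (log2 fold change 5.64, SE 0.53, edgeR adjusted p = 3.22e-07). For both *Ifit* genes anti-IgM replicate 3 was the highest of its group and without it the log2 fold changes were 6.876 and 7.166. The *Ifit* genes are close paralogs, among which the counting could have split reads.

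*Isg15* (chr4:156199424-156200818), a ubiquitin-like modifier, read 70.9, 58.6 and 39.4 CPM with LPS, 3.95, 2.84 and 3.39 with anti-IgM and 2.69, 2.92 and 2.84 at rest (log2 fold change 4.05, SE 0.28, edgeR adjusted p = 7.2e-09). *Rsad2*, which encodes viperin, an antiviral enzyme of the endoplasmic reticulum, read 19.6, 8.59 and 16.8 CPM with LPS and 0.519, 0.758 and 0.861 with anti-IgM (log2 fold change 4.4, SE 0.31, edgeR adjusted p = 9.94e-09). For both genes the anti-IgM libraries overlapped the resting ones, with edgeR adjusted p of 0.506 and 0.775 against resting. *Mx1* (log2 fold change 4.77), *Mx2* (4.23) and *Rtp4* (4.75) followed, the first pair encoding dynamin-like antiviral GTPases and the last a receptor transporter. *Mx1* and *Mx2* are annotated as transcribed pseudogenes by RefSeq in this C57BL/6 reference. In LPS replicate 2, *Ifit3*, *Mx1*, *Mx2*, *Rtp4* and *Rsad2* were the lowest of the 3 LPS libraries, whereas *Cxcl10* and *Isg15* were not, and the anti-IgM libraries stayed below it for each.

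The 42 tested genes of a list of interferon-stimulated antiviral genes were all higher with LPS at an adjusted p under 0.05, beside 17.4% of all genes, and 24 passed the thresholds. Their median log2 fold change of LPS minus anti-IgM was 2.307 and their range 0.36 to 6.89. Set against resting cells, 36 rose and 2 fell with LPS, with a median of 1.328, and 2 rose and 26 fell with anti-IgM, with a median of −0.906. For 20 of them the responses were opposite in direction. *Irf7*, the factor that amplifies type I interferon, was chosen for mention after its values were seen. It read 75.2, 32.5 and 61.2 CPM with LPS, 4.87, 4.01 and 6.48 with anti-IgM and 13.6, 13.2 and 15.4 at rest (log2 fold change 3.47, SE 0.27, edgeR adjusted p = 3.65e-08). The LPS and anti-IgM libraries did not overlap.

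Guanylate-binding proteins and immunity-related GTPases, which attack vacuoles holding microbes, moved the same way. All 14 tested were higher with LPS, 10 past the thresholds, with a median log2 fold change of 2.371. Against resting cells 11 rose with LPS and 12 fell with anti-IgM, and 9 did both. *Gbp2* read 84.3, 79.2 and 65.5 CPM with LPS, 34.7, 35.6 and 27.1 at rest and 8.58, 5.04 and 4.46 with anti-IgM, with no overlap between the groups (log2 fold change 3.65, SE 0.23, edgeR adjusted p = 3.21e-09). *Gbp2b* was near the limit of detection with anti-IgM, with 2 reads in 3 libraries against 36 at rest and 255 with LPS. *Tgtp2*, an IRG GTPase, read 7.07, 3.08 and 5.12 CPM with LPS and 0.558, 0.379 and 0.354 with anti-IgM (log2 fold change 3.53, SE 0.36, edgeR adjusted p = 7.28e-07). These genes lie in families of near-identical copies, so single members are uncertain.

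**Figure D1:**
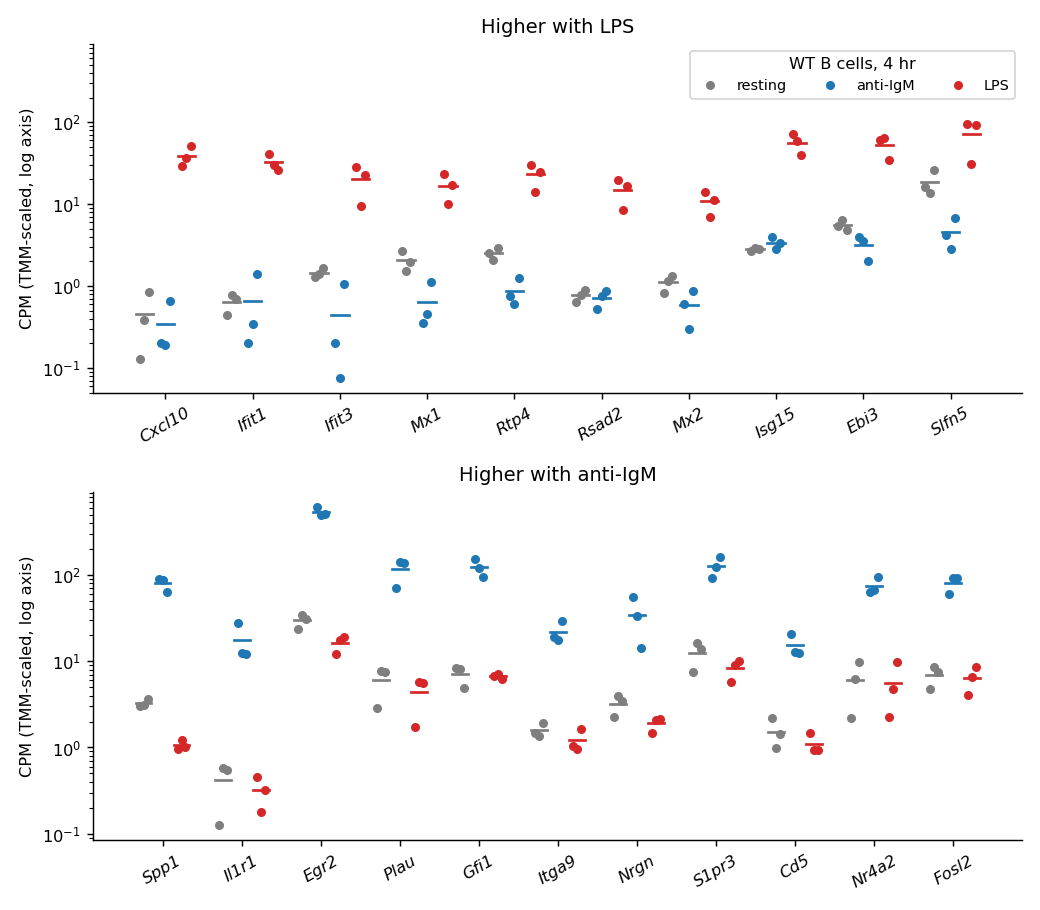
CPM (TMM-scaled, logarithmic axis) of the named genes with the largest differences between LPS and anti-IgM in WT B cells after 4 hr. Each point is 1 library (3 resting in gray, 3 anti-IgM in blue, 3 LPS in red), each bar the mean of 3, and no LPS point overlaps an anti-IgM point of the same gene.

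Promoters were examined because the genes of the interferon response moved together. RefSeq promoters on GRCm38.p6, from 250 bases before to 50 bases after a start site, were at hand for 10067 of the 14161 genes tested, 12739 promoters in all. An interferon-stimulated response element (ISRE) core, TTTC followed by any 2 bases and a second TTTC on either strand, was found in 3.2% of all these promoters and in 17.5% of 171 promoters of genes past the thresholds toward LPS. It was found in 2.58% of 155 promoters of genes toward anti-IgM. Among 51 promoters of the interferon-stimulated, GBP and IRG lists the share was 47.1%, and among the 146 promoters toward LPS outside those lists it was 10.3%. An AP-1 site (TGANTCA) was in 5.12% of all promoters, 12.9% toward LPS and 7.1% toward anti-IgM. The NF-κB site, GGGA and TTTCC around any 1 base, was in 0.463%, 1.75% and 0.645%. The cAMP response element (TGACGTCA) was in 3.06%, 0% and 1.29%, and the EGR site (GCGTGGGCG) in 1.21%, 0% and 1.29%. Matches of different motifs may overlap in position, base composition was not adjusted for, and a match of letters is not a measured binding site.

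The promoters shown here are of genes named for their fold change, 4 toward LPS and *Spp1* toward anti-IgM, which holds the same letters. They were picked because they hold an ISRE core, so they do not show how common it is among such genes. Each is 300 bases long, 5′ to 3′ along the gene, with ISRE core and AP-1 matches in capitals. The ISRE match of *Cxcl10* (chr5:92348840-92349139, minus strand) begins 213 bases before the start and its AP-1 match 74 bases before. *Ifit1* (chr19:34640639-34640938, plus strand) holds 2 ISRE cores, at 104 and 85 bases. *Isg15* (chr4:156200769-156201068, minus strand) holds 3 overlapping ISRE cores, at 78, 72 and 66 bases. *Rsad2* (chr12:26456403-26456702, minus strand) holds an ISRE core at 120 and an AP-1 site at 87 bases. *Spp1* (chr5:104434861-104435160, plus strand) holds an ISRE core at 157 bases.
Cxcl10: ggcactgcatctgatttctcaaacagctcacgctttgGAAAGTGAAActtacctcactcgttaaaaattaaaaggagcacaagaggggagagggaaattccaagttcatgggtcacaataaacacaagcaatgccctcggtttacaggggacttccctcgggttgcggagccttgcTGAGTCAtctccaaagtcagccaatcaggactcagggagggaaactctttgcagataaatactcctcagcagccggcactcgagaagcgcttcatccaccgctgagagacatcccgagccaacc
Ifit1: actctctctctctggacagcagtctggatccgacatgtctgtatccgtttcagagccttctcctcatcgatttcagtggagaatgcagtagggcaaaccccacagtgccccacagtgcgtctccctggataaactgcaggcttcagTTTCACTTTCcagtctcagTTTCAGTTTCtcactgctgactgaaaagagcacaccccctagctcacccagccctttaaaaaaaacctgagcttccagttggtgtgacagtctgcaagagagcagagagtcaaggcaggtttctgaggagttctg
Isg15: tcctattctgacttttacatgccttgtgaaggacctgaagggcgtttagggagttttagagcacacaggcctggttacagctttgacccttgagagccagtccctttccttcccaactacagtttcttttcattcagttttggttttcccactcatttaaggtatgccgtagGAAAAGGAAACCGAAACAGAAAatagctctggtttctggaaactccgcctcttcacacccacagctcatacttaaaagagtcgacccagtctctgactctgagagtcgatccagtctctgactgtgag
Rsad2: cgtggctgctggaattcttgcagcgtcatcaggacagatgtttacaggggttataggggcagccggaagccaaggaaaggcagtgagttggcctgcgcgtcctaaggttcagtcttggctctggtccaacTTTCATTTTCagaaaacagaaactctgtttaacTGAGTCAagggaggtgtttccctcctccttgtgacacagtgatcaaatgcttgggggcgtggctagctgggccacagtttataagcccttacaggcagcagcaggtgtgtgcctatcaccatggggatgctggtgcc
Spp1: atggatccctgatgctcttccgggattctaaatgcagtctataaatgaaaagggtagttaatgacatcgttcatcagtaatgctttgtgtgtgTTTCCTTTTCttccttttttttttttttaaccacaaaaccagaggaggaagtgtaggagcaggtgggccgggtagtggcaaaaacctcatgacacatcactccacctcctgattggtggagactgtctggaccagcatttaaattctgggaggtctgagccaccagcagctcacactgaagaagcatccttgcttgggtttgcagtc

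Genes outside the interferon-stimulated list also differed. *Ebi3*, the beta chain of IL-27 and IL-35, read 60.3, 64.8 and 34.6 CPM with LPS, 5.43, 6.39 and 4.78 at rest and 3.99, 3.52 and 2.03 with anti-IgM (log2 fold change 4.04, SE 0.27, edgeR adjusted p = 5.05e-09). *Slfn5*, a Schlafen family gene, read 95.3, 31.01 and 91.8 CPM with LPS, 16.2, 13.9 and 26.4 at rest and 4.23, 2.84 and 6.69 with anti-IgM (log2 fold change 4.01, SE 0.42, edgeR adjusted p = 9.21e-07). LPS replicate 2 was the lowest of the 3 for *Slfn5* and still above every other WT library. *Nid1*, a basement membrane protein, *Tmcc3*, and *Kynu*, an enzyme of tryptophan breakdown noted after its values were seen, differed by log2 fold changes of 3.79, 3.36 and 3.57. For *Kynu* the libraries were tight, at 95.7, 91.6 and 90.1 CPM with LPS, 33.9, 33.2 and 30.8 at rest and 8.098, 6.89 and 8.41 with anti-IgM (edgeR adjusted p = 1.3e-12).

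Of 18 cytokine mRNAs tested, 14 were higher with LPS and 3 with anti-IgM, beside 17.4% and 15% of all genes, with a median log2 fold change of 1.904. *Il6*, the B cell and plasma cell growth factor, read 3.13, 8.03 and 8.197 CPM with LPS and was near the limit of detection with anti-IgM, with 642 reads in the 3 LPS libraries against 4 in the 3 anti-IgM libraries (edgeR adjusted p = 1.74e-07). *Il1b* read 3.65, 7.904 and 11.4 CPM with LPS and 0.479, 0.758 and 0.8104 with anti-IgM (log2 fold change 3.49, SE 0.43, edgeR adjusted p = 6.61e-06). *Lta* and *Ltb*, the lymphotoxin chains that shape lymphoid tissue, were noted after their values were seen. *Lta* read 31.3, 36.6 and 31.7 CPM with LPS, 2.51, 3.41 and 3.14 with anti-IgM and 5.82, 6.16 and 7.82 at rest, a rise with LPS (2.33) and a fall with anti-IgM (−1.13). *Ltb* read 387, 288 and 305 CPM with LPS and 307, 324 and 268 at rest, which overlapped, against 61.4, 45.04 and 51.3 with anti-IgM (log2 fold change 2.63, SE 0.12, edgeR adjusted p = 9.49e-11). The 3 cytokines higher with anti-IgM were *Ifng* (−3.83), the type II interferon, *Csf1* (−2.43), the macrophage growth factor, and *Tgfb1* (−0.75). *Ifng* was a low-level mRNA, at 6.46, 3.98 and 4.25 CPM with anti-IgM, 2.301, 1.48 and 0.946 at rest and 0.711, 0.152 and 0.179 with LPS, and without LPS replicate 1 its log2 fold change was −4.862. The summed T and NK cell markers were at similar low levels, the T cell sum being higher with anti-IgM, and their part in *Ifng* and in *Xcl1* was not tested.

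Chemokines split by member. Of 9 tested, 4 were higher with LPS and 3 with anti-IgM. *Ccl22*, a ligand of CCR4 on T cells, read 140, 141 and 84.5 CPM with LPS, 7.78, 10.6 and 5.42 with anti-IgM and 10.8, 10.6 and 5.48 at rest (log2 fold change 3.92, SE 0.41, edgeR adjusted p = 1.03e-06). *Ccl5* (2.87) and *Cxcl16* (0.94) completed the LPS side with *Cxcl10*. *Ccl4*, a chemokine for T cells and macrophages, rose with both stimuli and more with anti-IgM, at 6.65, 9.35 and 7.52 CPM at rest, 19.6, 36.2 and 34.04 with LPS and 98.1, 88.5 and 81.4 with anti-IgM (log2 fold change −1.57, SE 0.23, edgeR adjusted p = 3.7e-05). *Ccl3* (−0.74, edgeR adjusted p = 0.0403) and *Xcl1* (−3.34, and −3.999 without LPS replicate 1) were also higher with anti-IgM. The *Ccl3* call was lost in 5 of the fits that left out 1 library.

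NF-κB subunits and inhibitors were higher with LPS in 15 of 20 cases and with anti-IgM in 4, with a median log2 fold change of 0.744. *Nfkbiz*, which encodes the nuclear coactivator IκBζ, rose with both stimuli but read 687, 776 and 637 CPM with LPS against 128, 105 and 100 with anti-IgM and 53.3, 56.8 and 49.3 at rest (log2 fold change 2.65, SE 0.11, edgeR adjusted p = 1.7e-11). *Bcl3*, another nuclear IκB protein, moved in opposite directions, to 198, 202 and 199 CPM with LPS and 30.3, 27.1 and 31.4 with anti-IgM from 98.9, 117 and 104 at rest (log2 fold change 2.76, SE 0.12, edgeR adjusted p = 2.51e-11). *Zc3h12a*, an RNase that cuts inflammatory mRNAs, rose with LPS (2.02) and read 0.17 with anti-IgM, which was not called against resting (edgeR adjusted p = 0.124). The 4 genes higher with anti-IgM were *Tnip2* (−0.98), *N4bp1* (−0.44), *Rel* (−0.36, edgeR adjusted p = 0.0444) and *Nfkbie* (−0.32). *Rel*, the c-Rel subunit, rose with both stimuli, and its call between them was lost in 4 of the fits without 1 library.

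Costimulatory molecules and surface activation markers were higher with LPS in 15 of 22 cases, 7 past the thresholds, and with anti-IgM in 1, with a median log2 fold change of 1.08. *Cd40*, the receptor for T cell help, read 292, 295 and 292 CPM with LPS, 83.2, 101 and 94.3 at rest and 36.1, 47.5 and 61.4 with anti-IgM (log2 fold change 2.6, SE 0.16, edgeR adjusted p = 2.21e-09). *Icosl*, the ligand of ICOS, stayed at 322, 264 and 338 CPM with LPS, overlapping 308, 318 and 379 at rest, and read 39.5, 29.7 and 47.6 with anti-IgM (log2 fold change 2.99, SE 0.16, edgeR adjusted p = 4.41e-10). *Fcer2a*, the low-affinity IgE receptor CD23, read 2148, 1996 and 1466 CPM with LPS, 619, 694 and 498 at rest and 447, 318 and 294 with anti-IgM (log2 fold change 2.41, SE 0.17, edgeR adjusted p = 8.61e-09). *Cd69*, *Cd80* and *Cd86* are common activation markers and were named after their values were seen. *Cd69* rose with both and was higher with LPS (0.96), and *Cd80* was higher with LPS (2.28). *Cd86* read 174, 278 and 408 CPM with anti-IgM and 90.02, 161 and 221 with LPS, overlapping groups whose difference of −0.86 was not called (edgeR adjusted p = 0.109). With the replicate number as a block it was called, at −0.870 (edgeR adjusted p = 3.13e-07), and each anti-IgM library exceeded the LPS library of its number. The 1 gene of the list higher with anti-IgM was *Cd38* (−0.59), which fell with both stimuli.

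Cell cycle and survival genes differed in a few members. *Ccnd2*, which encodes Cyclin D2, read 1239, 1261 and 772 CPM with LPS, 159, 186 and 134 with anti-IgM and 83.6, 72.3 and 54.1 at rest (log2 fold change 2.77, SE 0.19, edgeR adjusted p = 7.9e-09). Both stimuli raised it, LPS by 3.96 and anti-IgM by 1.19 on the log2 scale. *Ccnd3* (Cyclin D3) fell with both and was higher with LPS by 0.53. Of the 18 tested G1 genes, 5 were higher with LPS, namely *Ccnd2*, *E2f2* (2.14), *Cdkn1a* (0.81), *Ccnd3* and *Cdk2* (0.37), and 1 with anti-IgM, *Cdk4* (−0.58). *Myc* rose with both stimuli, from 77.7, 126 and 96.1 CPM at rest to 872, 1036 and 703 with LPS and 822, 1021 and 920 with anti-IgM, overlapping groups with a difference of −0.08 (SE 0.18, edgeR adjusted p = 0.774). *Bcl2l1*, the survival gene for BCL-XL, read 207, 225 and 134 CPM with LPS, 53.5, 52.2 and 42.3 with anti-IgM and 13.7, 15.7 and 11.7 at rest (log2 fold change 1.94, SE 0.16, edgeR adjusted p = 4.63e-08). *Bcl2* read 90.2, 90.7 and 88.02 CPM with LPS, 91.4, 96.01 and 97.7 at rest and 38.6, 29.96 and 33.8 with anti-IgM (log2 fold change 1.39, SE 0.10, edgeR adjusted p = 1.45e-08). It fell with anti-IgM and was not called with LPS against resting (edgeR adjusted p = 0.474). The death gene *Bcl2l11* (BIM) was higher with anti-IgM (−0.57). Of 14 tested BCL2 family genes, 8 were higher with LPS and 2 with anti-IgM, the second being *Bax* (−0.30, edgeR adjusted p = 0.0124), whose call was lost in 2 of the fits without 1 library. The share of this list toward anti-IgM was near the 15% of all genes.

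In the SOCS, JAK-STAT and PIM list 12 of 20 genes were higher with LPS and 1, *Socs7*, with anti-IgM (−0.25, edgeR adjusted p = 0.0274, lost in 3 of the fits without 1 library). *Socs3*, the feedback inhibitor of gp130 cytokine signals, read 14.9, 19.6 and 26.1 CPM with LPS, 5.95, 6.702 and 12.3 at rest and 1.32, 1.48 and 3.9 with anti-IgM (log2 fold change 3.23, SE 0.36, edgeR adjusted p = 2.2e-06), and the difference was 3.849 without anti-IgM replicate 3. The kinase genes *Pim2* (2.3) and *Pim1* (1.98) were higher with LPS as well.

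On the anti-IgM side, *Spp1* (chr5:104435111-104441053), which encodes osteopontin, read 89, 87.99 and 62.6 CPM with anti-IgM, 3.005, 3.12 and 3.64 at rest and 0.969, 1.22 and 1.002 with LPS, 3 groups that did not overlap (log2 fold change −6.21, SE 0.21, edgeR adjusted p = 4.62e-12). A gene without a symbol, Entrez 100503439, ran parallel to *Spp1*, and reads shared between them were not tested. *Il1r1* (chr1:40222480-40316201), the receptor of IL-1, read 27.9, 12.6 and 12.1 CPM with anti-IgM, 0.128, 0.585 and 0.548 at rest and 0.452, 0.178 and 0.322 with LPS (log2 fold change −5.81, SE 0.53, edgeR adjusted p = 2.17e-07). It was counted 1270 times in the anti-IgM libraries and 30 times in the LPS libraries. *Plau*, the urokinase that activates plasminogen, read 70.8, 140 and 139 CPM with anti-IgM, 2.88, 7.68 and 7.52 at rest and 1.74, 5.74 and 5.58 with LPS (log2 fold change −4.73, SE 0.40, edgeR adjusted p = 8.56e-08). For *Il1r1* and *Plau* the LPS libraries overlapped the resting ones. The myeloid marker sum was 25.53 to 30.44 CPM with anti-IgM, 22.66 to 25.52 with LPS and 30.08 to 56.13 at rest. The part of myeloid cells in *Spp1* and *Plau* was not tested.

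*S1pr3*, a sphingosine-1-phosphate receptor of marginal zone B cells, read 92.9, 125 and 160 CPM with anti-IgM, 7.48, 16.4 and 13.8 at rest and 5.72, 9.12 and 9.99 with LPS (log2 fold change −3.92, SE 0.27, edgeR adjusted p = 7.27e-09). *Itga9*, an integrin alpha chain, read 19.1, 17.5 and 28.9 CPM with anti-IgM and 1.03, 0.966 and 1.65 with LPS (log2 fold change −4.18, SE 0.31, edgeR adjusted p = 1.53e-08). *Cd5*, an inhibitory receptor of B-1 cells and T cells that antigen receptor signals raise, read 20.4, 12.7 and 12.6 CPM with anti-IgM, 2.17, 0.974 and 1.44 at rest and 1.45, 0.9403 and 0.931 with LPS (log2 fold change −3.78, SE 0.26, edgeR adjusted p = 6.55e-09). The T cell marker sum was also higher in every anti-IgM library (6.686 to 7.54 CPM) than in every LPS library (3.279 to 4.94), with the *Cd3* genes near 0, and *Cd5* alone exceeded that sum in each anti-IgM library. *Cd5* overlapped between resting and LPS libraries. *Gfi1*, a zinc finger repressor, read 154, 121 and 93.5 CPM with anti-IgM, 8.31, 8.14 and 4.83 at rest and 6.78, 7.14 and 6.3 with LPS (log2 fold change −4.19, SE 0.18, edgeR adjusted p = 2.9e-11). *Nrgn*, a calmodulin-binding protein best known from neurons, was variable, at 55.2, 33.5 and 14.1 CPM with anti-IgM against 1.49, 2.06 and 2.15 with LPS (log2 fold change −4.17, SE 0.38, edgeR adjusted p = 2.05e-07).

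The next list held immediate early transcription factors of the EGR and NR4A families, reporters of antigen receptor signaling, and the EGR corepressors *Nab1* and *Nab2*. Its genes were higher with anti-IgM in 7 of 8 cases beside 15% of all genes, 6 of them past the thresholds, with a median log2 fold change of −2.092. *Nab2* (−2.02) was among those past the thresholds. *Egr2* (chr10:67534469-67542188) read 605, 494 and 514 CPM with anti-IgM, 23.6, 34.8 and 30.8 at rest and 12.2, 17.4 and 19.1 with LPS, 3 groups without overlap (log2 fold change −5.05, SE 0.20, edgeR adjusted p = 1.53e-11). LPS lowered it, with a log2 fold change of −0.88 against resting. *Egr3* read 315, 204 and 170 CPM with anti-IgM and 34.7, 32.1 and 25.9 with LPS (log2 fold change −2.89, SE 0.21, edgeR adjusted p = 1.72e-08). *Nr4a2*, an orphan nuclear receptor, read 63.1, 66.5 and 93.7 CPM with anti-IgM, 2.17, 6.196 and 9.91 at rest and 2.26, 4.702 and 9.74 with LPS (log2 fold change −3.76, SE 0.42, edgeR adjusted p = 1.94e-06). Without LPS replicate 3 the difference for *Nr4a2* was −4.387. *Egr1*, *Nr4a1* and *Nr4a3*, noted after their values were seen, differed by −2.04, −1.1 and −2.14, and *Nr4a1* and *Nr4a3* also rose with LPS, by 1.5 and 1.19 against 2.59 and 3.33 with anti-IgM. The exception was *Nab1*, an EGR corepressor (0.36, edgeR adjusted p = 0.0107), whose call was lost without LPS replicate 3 and without anti-IgM replicate 1.

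AP-1 genes divided between the stimuli. Of 13 tested, 4 were higher with LPS, *Batf* (2.31), *Jun* (2.14), *Jund* (1.12) and *Junb* (0.40), and 5 with anti-IgM, *Fosl2* (−3.67), *Maff* (−1.88), *Fosl1* (−1.25), *Mafg* (−0.64) and *Mafk* (−0.36). Between the stimuli the JUN genes and *Batf* thus stood on the LPS side, and *Fosl1*, *Fosl2* and the small MAF genes on the anti-IgM side. *Fos*, *Fosb*, *Atf3* and *Batf3* were not called. Against resting, *Fosl1* (1.1), *Maff* (0.96), *Mafk* (0.86) and *Mafg* (0.76) also rose with LPS. *Junb* (0.84) and *Batf* (0.7) also rose with anti-IgM. *Jund* fell with anti-IgM (−1.26) and was not called with LPS (edgeR adjusted p = 0.353). *Fosl2*, which encodes FRA-2, read 60.8, 91.6 and 91.5 CPM with anti-IgM, 4.73, 8.61 and 7.42 at rest and 4.005, 6.61 and 8.63 with LPS (log2 fold change −3.67, SE 0.25, edgeR adjusted p = 6.55e-09). *Batf*, needed for class switch recombination, read 97.7, 100 and 52.01 CPM with LPS, 20.1, 18.8 and 11.3 with anti-IgM and 11.9, 10.9 and 8.22 at rest (log2 fold change 2.31, SE 0.26, edgeR adjusted p = 2.14e-06). The *Junb* call was lost without anti-IgM replicate 2.

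Of 17 DUSP and Sprouty genes, feedback inhibitors of MAP kinase signaling, 11 were higher with anti-IgM, beside 15% of all genes, and 2 with LPS, *Dusp5* (1.28, edgeR adjusted p = 0.0189, lost in 3 of the fits without 1 library) and *Dusp16* (0.79), with a median log2 fold change of −0.711. *Spry1*, an inhibitor of RAS to ERK signaling, read 6.62, 13.1 and 8.81 CPM with anti-IgM and 1.32, 1.37 and 0.787 with LPS (log2 fold change −3.01, SE 0.29, edgeR adjusted p = 3.18e-07), and *Spry4* (−2.6) and *Spry2* (−2.42) followed. Among 10 NFAT and calcineurin genes, 3 were higher on each side. The anti-IgM side held *Nfatc1* (−1.15), the calcineurin inhibitor *Rcan1* (−1.34) and *Rcan3* (−0.71), and the LPS side the calcineurin subunits *Ppp3ca* (1.22), *Ppp3cc* (0.55) and *Ppp3cb* (0.30). *Nfatc1* rose with anti-IgM (0.93) and fell with LPS (−0.22).

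Genes that moved in opposite directions from the resting level numbered 204 for a rise with LPS and a fall with anti-IgM (1.44% of genes tested) and 180 for the reverse (1.27%), at an adjusted p under 0.05 in both. With the replicate number as a block they were 295 and 284. At least 1 log2 unit in both directions was reached by 38 genes (0.268%) and 27 genes (0.191%), and all of both sets also passed the thresholds between the stimuli. This choice fixes both the direction and the size of that difference, and only the adjusted p was left free. In the 38 genes the median response was 1.451 to LPS and −1.825 to anti-IgM, and in the 27 genes −1.385 and 1.629.

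Among those up with LPS and down with anti-IgM, ranked by the smaller of the responses, the first named genes were *Slfn5* (1.95 and −2.06), *Ifit3* (3.8 and −1.84), *Mx1* (3.06 and −1.71) and *Nid1* (1.7 and −2.09), each pair giving the log2 response to LPS and then to anti-IgM. *Tmcc3* (1.55 and −1.81), *Rtp4* (3.2 and −1.55) and *Xaf1* (1.69 and −1.51), an interferon-inducible XIAP-binding protein, followed. Of these, *Ifit3*, *Mx1*, *Rtp4* and *Xaf1* belong to the interferon-stimulated list. The fall with anti-IgM was from low resting levels for *Ifit3*, *Mx1* and *Rtp4*, and from higher levels for *Nid1* and *Tmcc3*. *Tmcc3*, a membrane protein gene, read 98.3, 111 and 95.5 CPM with LPS, 34.4, 31.7 and 38 at rest and 7.54, 9.697 and 12.7 with anti-IgM.

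In the reverse direction stood *Spp1* (−1.59 with LPS and 4.62 with anti-IgM), the lncRNA *E330020D12Rik* (−1.55 and 1.77), *Ephx1* (−1.81 and 1.4), an epoxide hydrolase, and *Emb* (−1.39 and 1.77), the monocarboxylate transporter partner embigin. *Ephx1* read 588, 348 and 337 CPM with anti-IgM, 191, 166 and 125 at rest and 53.6, 37.2 and 46.6 with LPS, and *Emb* read 29.5, 40.3 and 40.9 CPM with anti-IgM, 9.21, 11.4 and 11.7 at rest and 3.13, 3.63 and 5.69 with LPS. The 3 conditions did not overlap for either gene. Without strand, reads of *E330020D12Rik* and of any gene that overlaps it cannot be told apart. *Uap1l1* (−1.36 and 1.47), *Adamts6* (−1.33 and 1.37), a secreted metalloprotease, and *Sirpa* (−1.34 and 1.21), the receptor of CD47, followed. Noted after their values were seen, the G protein signaling regulators *Rgs2* (−1.44 and 1.06) and *Rgs16* (−1.67 and 1.01) and the T cell adaptor and phosphatase genes *Sh2d2a* (−0.83 and 1.72) and *Ptpn22* (−1.82 and 0.77) had the same pattern. The T cell marker sum had this direction between the stimuli, at 6.686 to 7.54 CPM with anti-IgM and 3.279 to 4.94 with LPS, with its called members split. *Sh2d2a* read 202, 209 and 210 CPM with anti-IgM, 62.1, 59.03 and 68.1 at rest and 33.4, 32.8 and 40.2 with LPS (edgeR adjusted p = 1.35e-12 between the stimuli).

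**Figure D2:**
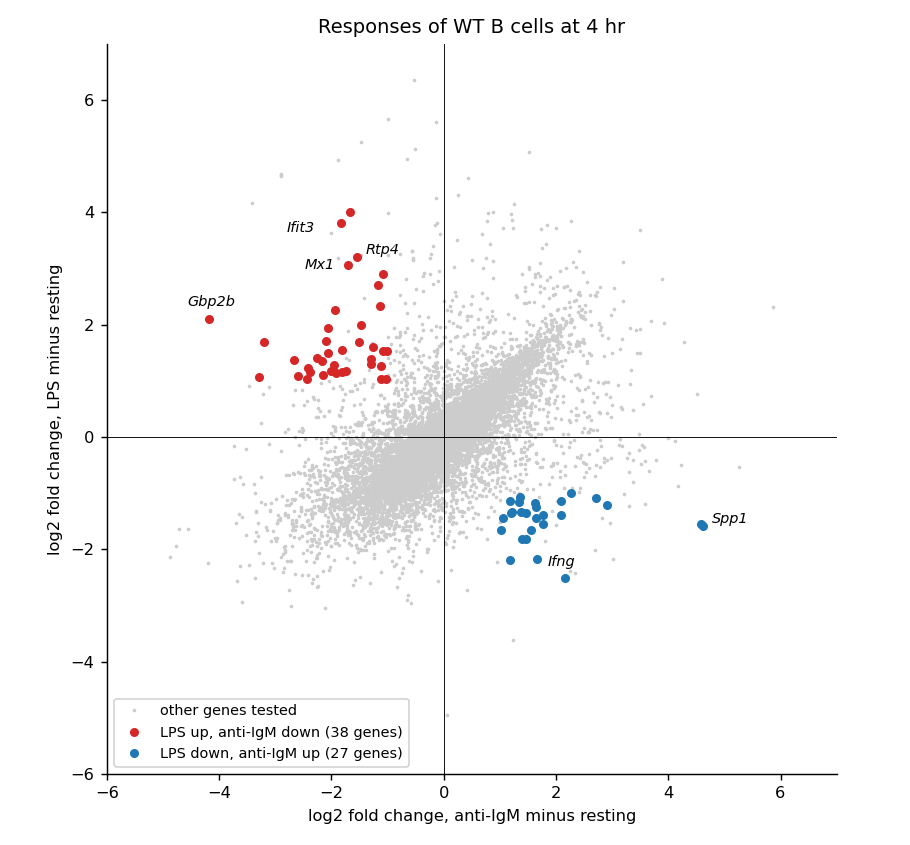
Log2 fold change with LPS (vertical axis) against that with anti-IgM (horizontal axis), each minus the same 3 resting WT libraries, for 14161 genes. Red marks the 38 genes up with LPS and down with anti-IgM and blue the 27 genes of the reverse pattern, by at least 1 log2 unit in both, and gray the other genes tested.

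The receptors and proximal signaling genes of each route also responded. *Tlr4*, the LPS receptor, fell with both stimuli, from 21.2, 21.9 and 20.5 CPM at rest to 7.5, 11.1 and 10.2 with anti-IgM and 5.59, 4.58 and 7.696 with LPS, and the stimulated groups overlapped slightly (log2 fold change −0.70, SE 0.18, edgeR adjusted p = 0.00677). *Ly96* read 2.69, 3.62 and 2.29 CPM at rest, 2.07, 2.01 and 2.33 with anti-IgM and 1.74, 1.601 and 1.79 with LPS (edgeR adjusted p = 0.251 between the stimuli), and the coreceptor gene *Cd14* 0.129 to 1.01 CPM in the stimulated libraries. Of 26 TLR receptors and adaptors, 13 were higher with LPS and 3 with anti-IgM, namely *Tlr4*, *Cd180* (−0.77), which encodes the TLR4 homolog RP105, and *Tollip* (−0.17, edgeR adjusted p = 0.0163, lost in 3 of the fits without 1 library). *Ikbke*, the IKKε kinase upstream of IRF3 and IRF7, read 60.8, 63.2 and 52.5 CPM with LPS, 13.7, 17.3 and 17.1 at rest and 9.54, 8.94 and 9.78 with anti-IgM (log2 fold change 2.65, SE 0.12, edgeR adjusted p = 5.22e-11). *Tlr1*, which pairs with TLR2, read 136, 121 and 119 CPM with LPS, 122, 90.5 and 81.2 at rest and 26.4, 18.3 and 17.6 with anti-IgM (log2 fold change 2.59, SE 0.16, edgeR adjusted p = 3.24e-09).

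Of 35 BCR complex and proximal signaling genes, 21 were higher with LPS and 7 with anti-IgM. Against resting, 25 of the 35 fell with anti-IgM, beside 32.2% of all genes, and 22 fell with LPS, beside 30.1%. The median responses were −0.876 to anti-IgM and −0.498 to LPS. *Cd79a* read 465, 335 and 374 CPM with anti-IgM, 965, 740 and 903 with LPS and 1435, 1314 and 1264 at rest (log2 fold change 1.15, SE 0.12, edgeR adjusted p = 1.42e-06), and *Cd79b* differed by 0.77. *Syk*, the kinase next to the BCR, read 240, 186 and 205 CPM with anti-IgM against 1263, 1042 and 1122 with LPS and 1291, 1123 and 1095 at rest, the last groups overlapping (log2 fold change 2.44, SE 0.09, edgeR adjusted p = 1.53e-11). Higher with anti-IgM were the SRC-family kinase *Fyn*, at 596, 767 and 954 CPM against 94.96, 159 and 206 with LPS and 109, 172 and 205 at rest (log2 fold change −2.33, SE 0.30, edgeR adjusted p = 9.28e-06), the exchange factor *Vav3* (−2.12) and the PI3K adaptor *Pik3ap1* or BCAP (−1.47). *Lck*, a SRC-family kinase outside the list that was noted after its values were seen, also stood higher with anti-IgM, at 210, 122 and 140 CPM against 44.5, 30.7 and 35.6 with LPS (−2.09). The T cell marker sum had the same direction at 6.686 to 7.54 CPM with anti-IgM, and the part of T cells in *Lck* was not tested.

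Ribosome biogenesis genes rose with both stimuli. All 36 nucleolar ribosome biogenesis genes rose with LPS and all 36 with anti-IgM, with medians of 1.45 and 1.508 on the log2 scale against resting. Between the stimuli 1 was higher with LPS, *Polr1e* (0.32), 4 were higher with anti-IgM, *Npm3* (−0.39), *Fbl* (−0.38), *Nhp2* (−0.37) and *Pes1* (−0.34), and 31 were not called, with a median difference of −0.0253. Each of these 5 calls was lost in at least 1 fit that left out a library. Amino acid transporters and polyamine genes were higher with anti-IgM in 5 of 16 cases, beside 15% of all genes, and with LPS in 1, *Slc38a2* (0.29, lost in 3 of the fits without 1 library). *Slc1a5*, a glutamine transporter, read 794, 982 and 931 CPM with anti-IgM, 428, 494 and 390 with LPS and 400, 414 and 359 at rest (log2 fold change −1.04, SE 0.09, edgeR adjusted p = 1.41e-07). The others were *Slc3a2* (−0.94), *Slc38a1* (−0.90), *Sat1* (−0.72) and *Slc7a6* (−0.41).

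Of 23 glycolysis genes, 7 were higher with anti-IgM, beside 15% of all genes, led by *Pfkp* (−1.22) and *Ldha* (−0.74), and 1 with LPS, the glucose transporter *Slc2a3* (0.60). Cholesterol synthesis genes were higher with anti-IgM in 7 of 22 cases, with *Insig1* (−0.49) and *Cyp51* (−0.49) as examples, and with LPS in 1, the sterol exporter *Abcg1* (1.77). The endoplasmic reticulum list had 9 of 20 higher with anti-IgM and 0 with LPS, including *Ddit3* (−0.95), the stress factor CHOP, and *Hspa5* (−0.33), the chaperone BiP. All genes were called toward anti-IgM in 15% of cases and toward LPS in 17.4%. The list medians were −0.181, −0.186, −0.107 and −0.223 for amino acid, glycolysis, cholesterol and endoplasmic reticulum genes.

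Fate and subset genes differed in both directions. Of 23 B cell fate factors, 13 were higher with LPS, led by *Pou2f2* (2.49), which encodes OCT2, *Pax5* (1.83) and *Id2* (1.42). Toward anti-IgM stood 4, *Tbx21* (−1.83), *Xbp1* (−0.64), *Bach2* (−0.56) and *Irf4* (−0.43), a share near the 15% of all genes. *Irf4*, needed for plasma cells and class switching, rose with both, to 1855, 1973 and 1954 CPM with anti-IgM and 1372, 1574 and 1345 with LPS from 383, 422 and 420 at rest. Plasma cell secretory genes had 3 higher with LPS, *Herpud1* (0.64), *Sec11c* (0.61) and *Mzb1* (0.58), and 4 with anti-IgM, *Sdc1* (−1.72), *Txndc5* (−0.56), *Ssr4* (−0.40) and *Hspa5*, of 14, a share toward LPS near the 17.4% of all genes. Homing receptors had 7 higher with LPS, led by the LFA-1 chain *Itgal* (1.83), and 9 with anti-IgM, led by *S1pr3*, *Ccr9* (−3.35) and *Ccr1* (−3.29), of 18. Without LPS replicate 3 the value of *Ccr1* was −3.982. Follicular markers summed to 3256 to 3825 CPM with LPS, 1030 to 1188 with anti-IgM and 1764 to 2024 at rest, and marginal zone markers to 907.7 to 1102, 1396 to 1430 and 1119 to 1377. The marginal zone markers were split, with 4 of 8 higher with anti-IgM and 2 with LPS, *Asb2* (2.66) and *Mzb1*. Of the 5 follicular markers 4 were higher with LPS and 0 with anti-IgM. *Fcer2a* belongs to the first sum and *S1pr3* to the second, and changed cell shares and changed mRNA per cell cannot be told apart here either.

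Interleukin and interferon receptors had 10 of 24 higher with LPS, led by *Il10ra* (2.64) and *Il9r* (1.99), and 5 with anti-IgM, *Il1r1*, *Il7r* (−1.57), *Il1r2* (−1.23), *Il6st* (−1.03) and *Crlf2* (−0.57). *Il10ra*, the IL-10 receptor, stayed at 193, 159 and 255 CPM with LPS, overlapping 190, 193 and 224 at rest, and read 33.1, 26.9 and 37.7 with anti-IgM. TNF receptor genes had 4 of 12 higher with LPS, *Tnfrsf8* (1.51), *Tnfrsf13b* (1.15), *Tnfrsf1a* (0.82) and *Tnfrsf14* (0.60), of which *Tnfrsf14* lost its call without LPS replicate 1 and *Tnfrsf1a* in 7 of the fits without 1 library, and 2 with anti-IgM, *Cd27* (−1.52) and *Tnfrsf26* (−0.95). MHC class II genes had 8 of 12 higher with LPS, led by *Ctss* (0.94) and *H2-DMa* (0.79), and 2 with anti-IgM, *H2-Aa* (−0.64) and *H2-Eb1* (−0.63, lost in 3 of the fits without 1 library). Against resting, 0 of these 12 rose and 7 fell with LPS, and 2 rose and 9 fell with anti-IgM. Their median responses were −0.674 and −1.11. In the TNF receptor and MHC class II lists the share toward anti-IgM was near the 15% of all genes. Quiescence factors had 7 of 24 on each side, with *Klf7* (0.97) and *Txnip* (0.78) toward LPS and *Klf9* (−2.03) and *Pik3ip1* (−1.67) toward anti-IgM. *Klf9*, a Krüppel-like factor, read 38.8, 38.6 and 39.3 CPM with anti-IgM, 9.46, 10.1 and 10.3 at rest and 9.21, 9.96 and 9.34 with LPS. In the MYC network 2 of 11 were higher with LPS, *Mycl* (1.1) and *Mlxip* (0.55), and 3 with anti-IgM, *Mxd3* (−1.42), *Mnt* (−0.80) and *Mxd4* (−0.53, lost in 3 of the fits without 1 library), and the share toward LPS was near the 17.4% of all genes.

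**Figure D3:**
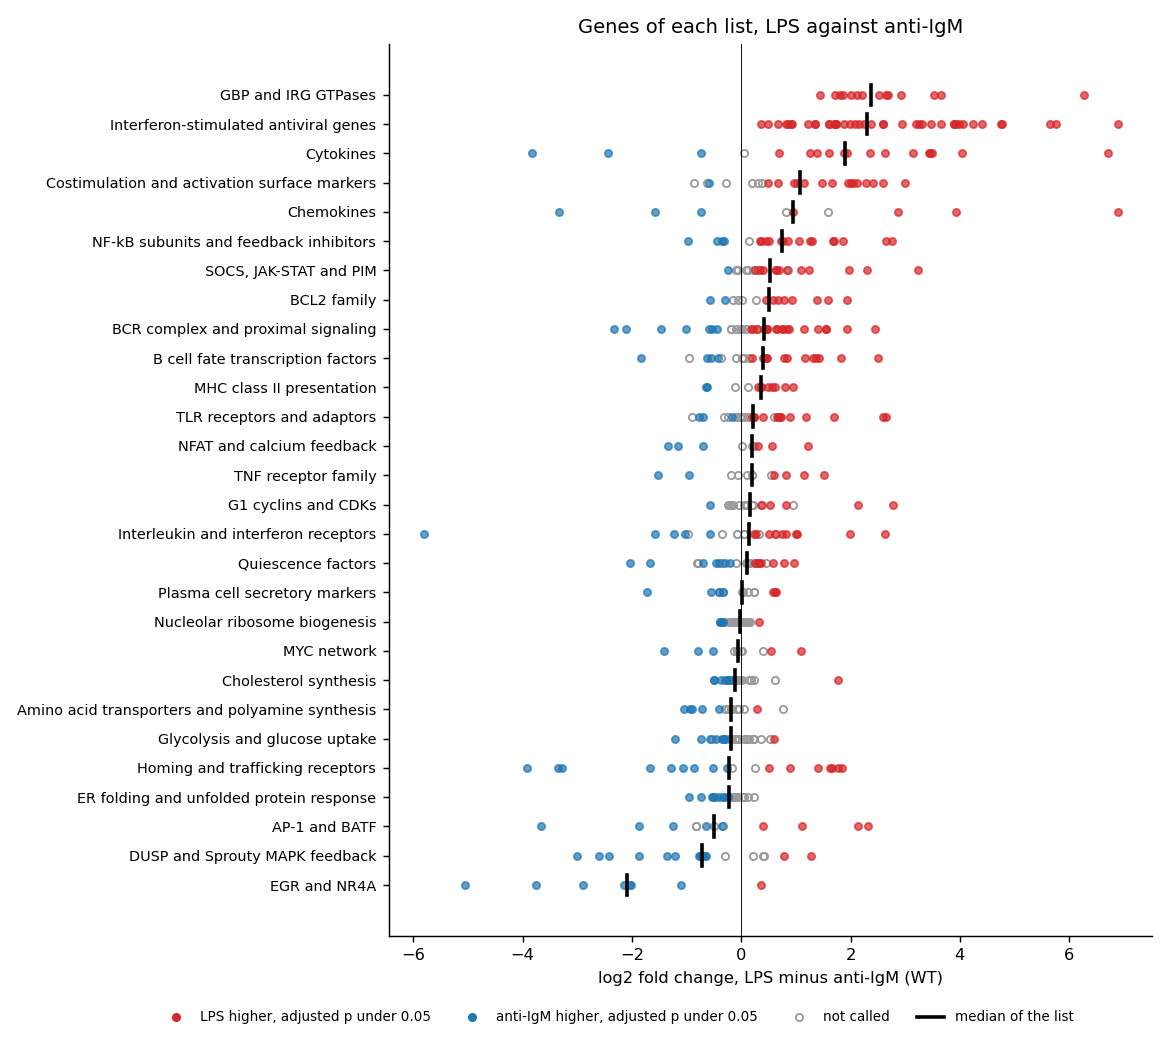
Log2 fold change of LPS minus anti-IgM in WT B cells (horizontal axis) for every tested gene of 28 lists (rows, ordered by median). Red and blue points passed an adjusted p under 0.05 toward LPS and anti-IgM, open gray points did not and black bars are medians, from 2.371 for GBP and IRG GTPases to −2.092 for EGR and NR4A.

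The same comparison was made in *Ubqln1* knockout B cells (3 LPS and 3 anti-IgM libraries, exon 2 of *Ubqln1* deleted). These libraries did not enter the WT fold changes. All 18 libraries were fitted together, however, so they shared the gene filter and the estimate of the spread behind the WT calls. There 2380 genes were higher with LPS (16.8%) and 2057 with anti-IgM (14.5%) at an adjusted p under 0.05, and 172 (1.21%) and 145 (1.02%) passed the thresholds. Of the 198 WT genes toward LPS, 198 had the same direction in knockout cells, 196 at an adjusted p under 0.05 and 151 past the thresholds. Of the 157 toward anti-IgM, 157 had the same direction, 155 at an adjusted p under 0.05 and 122 past the thresholds. The medians were 2.875 in WT and 2.445 in knockout cells for the first set and −2.811 and −2.838 for the second, and the WT values chose both sets. *Cxcl10* differed by 6.39 in knockout cells (edgeR adjusted p = 1.29e-09), *Ifit1* by 5.55, *Spp1* by −6.74 and *Egr2* by −5.08. The difference of the contrast between genotypes was called for 0 of 14161 genes (0%) by edgeR, with 230 at an unadjusted p under 0.05, for 0 by limma with voom and for 2 by DESeq2. It was called for 8 genes without WT LPS replicate 2 and for 1 without WT anti-IgM replicate 3.

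**Figure D4:**
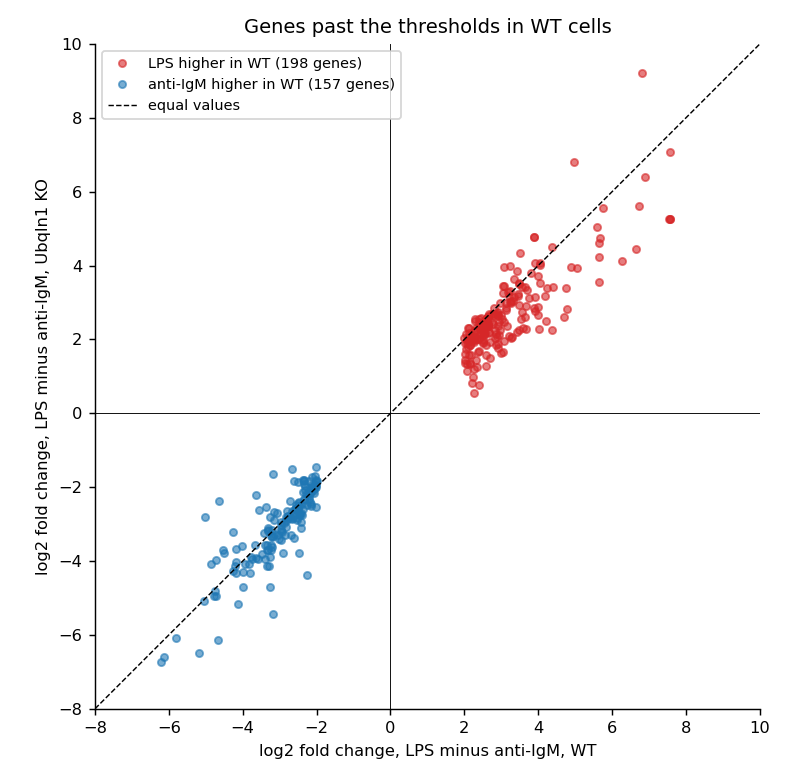
Log2 fold change of LPS minus anti-IgM in *Ubqln1* knockout B cells (vertical axis) against WT B cells (horizontal axis) for the 198 genes past the thresholds toward LPS (red) and the 157 toward anti-IgM (blue) in WT cells. The dashed line marks equal values, and all genes of both sets lie on the same side of zero in both genotypes.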

How the data were processed

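The authors aligned single-end 50 bp reads (TruSeq RNA v2, a kit that does not mark strand) to GRCm38 with GSNAP and deposited raw counts and RPKM per gene for each library. The counting tool is not given in the sources used here. Tests used the counts, and RPKM served only to check them. Genes were named by Entrez number from RefSeq (25035 of 28096, with at least 95.76% of counts).

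From the counts, edgeR 4.0.16 in R 4.3.3 (TMM scaling, filterByExpr, quasi-likelihood test, Benjamini-Hochberg adjustment) was fitted to all 18 libraries with 6 group terms. Fold changes are log2 with SE from the F statistic. The script was tested on simulated data with 200 changed genes. The replicate numbers paired the samples, since deviations of LPS and anti-IgM libraries of the same number correlated at 0.4967, 0.4137 and 0.4899. The tests given above left this pairing out unless a replicate block is named. The replicate counted as 1 carries no number in its label. The alternatives were a replicate block, WT samples only, DESeq2 1.42.0, limma 3.58.1 with voom, RLE scaling, other filters and thresholds, and leaving out each library.

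Members and lists were chosen with earlier results of these data known. Named genes were the 12 with the largest fold change per direction past the thresholds with at least 10 CPM, the 8 per direction with the largest opposite responses, the 3 per list and direction with at least 1 CPM, and the receptors and markers. Another 37 were chosen after their values were seen. Genes without a symbol were counted but not described, except 1 that may share reads with *Spp1*, and some named genes are not reported here.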

Additional observations from a re-analysis of the deposited data

How the results depend on the processing

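Of 215 named genes called between LPS and anti-IgM at an adjusted p under 0.05, 24 lost the call under some alternative, 23 of them without 1 library, and 0 reversed. Another 5 gained a call, namely *Adgre1*, *Jchain*, *Cr2*, *Ubqln1* and *Cd86*. Requiring 10 counts in every sample left 114 genes higher with LPS, 83 with anti-IgM and 40 of the 65 opposite by at least 1 log2 unit, since low genes were not tested. Lowering the fold threshold to 1 log2 unit gave 572 and 414. With the replicate block 3167 genes were higher with LPS and 2888 with anti-IgM at an adjusted p under 0.05, in place of 2468 and 2122. The genes down with LPS and up with anti-IgM then numbered 284 in place of 180. Past the thresholds the counts with the block were 210 and 166, holding 197 of the 198 and 153 of the 157 genes. With WT samples only they were 161 and 123, and with both, added after the data were seen, 203 and 158. The genotype difference was called for 2 genes by DESeq2. Without 1 library the ranges were 166 to 203 genes past the thresholds toward LPS, 131 to 161 toward anti-IgM, 2020 to 2527 and 1763 to 2217 at an adjusted p under 0.05, 172 to 209 and 143 to 201 in opposite directions, 55 to 77 by at least 1 log2 unit in both, and 0 to 8 for the genotype difference. Among the named genes the replicate block added calls for *Adgre1*, *Cr2*, *Ubqln1* and *Cd86* and removed 0. With anti-IgM libraries of 19875860 to 26466299 counts, folds of genes near 0 with anti-IgM are the least certain.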

Other observations

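The 42 tested interferon-stimulated genes had a larger log2 fold change of LPS minus anti-IgM in WT than in *Ubqln1* knockout cells in 42 of 42 cases, with medians of 2.307 in WT and 1.356 in knockout cells. The median difference was 0.728, against −0.0028 over all genes. Of the 42, 29 had an unadjusted p under 0.05 for the genotype difference in edgeR, beside 230 of all 14161 genes tested, and 0 passed an adjusted p under 0.05 (the smallest adjusted p was 0.9999). The 42 genes moved together and were read in the same libraries, so these counts are not separate observations of the genotype. A genotype difference of the list as a whole was not tested. *Cxcl10* differed by 6.89 in WT and 6.39 in knockout cells, *Mx1* by 4.77 and 2.82, and *Rsad2* by 4.4 and 3.43.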
